A study of Mus musculus with 2 samples.

Results

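Open chromatin was examined at 8 genes tied to growth of the fetal liver, some of them imprinted, *H19*, *Igf2*, *Dlk1*, *Gpc3*, *Igf2bp1*, *Igf2bp3*, *Lin28b* and *Hmga2*, in livers with and without hepatocyte *Mettl3*. A region belonged to a gene when that gene had the closest transcription start site (TSS), at any distance, and a promoter region had its centre within 1 kb of the TSS. Of 69549 distinct regions, 10 met this, and they fell on 5 of the 8 genes. *Gpc3* and *Lin28b* had 3 regions each, *Igf2bp3* had 2, and *Dlk1* and *Hmga2* had 1 each. *H19*, *Igf2* and *Igf2bp1* had no region listed in the table used here. For these 3 genes the table gives neither a symbol nor an Ensembl identifier that could be paired with them, so they were also looked for by their RefSeq coordinates, without a match. Only *Gpc3* had a promoter region by this distance, although a *Lin28b* region covers the start of a longer RefSeq gene model.

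ATAC-seq, in which the Tn5 transposase cuts accessible DNA and tags it for sequencing, was done on 1 library of *Mettl3* flox/flox livers and 1 library of *Mettl3*-HKO livers. Each library was pooled from the livers of 4 C57BL/6 mice that were fed normal chow and were 8 weeks old. Both groups carry the floxed *Mettl3* allele, and the *Mettl3*-HKO mice also carry Alb-Cre, whose albumin promoter directs the deletion to hepatocytes, so that the endothelial and blood-derived cells of the liver keep *Mettl3*. *Mettl3* encodes the methyltransferase that places m6A on RNA, and the study asked by ATAC-seq whether its loss changes chromatin opening. They are called the flox/flox and the HKO library below. Neither group has a second library, so no spread between mice could be measured, and all tests and intervals set 1 library against the other and reflect read counting alone.

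These genes are active while the liver grows before birth and are turned down in the adult organ. IGF2 is the main fetal growth factor of the insulin-like family. Its gene and *H19* share enhancers and an insulator that binds CTCF on the maternal chromosome, so that *Igf2* is expressed from the paternal and *H19* from the maternal allele, and *Dlk1* and *Meg3* form a comparable pair. LIN28B blocks the maturation of let-7 microRNAs, which in turn repress *Lin28b*, *Hmga2* and the *Igf2bp* genes, and several of these genes come back on in liver cancer.

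The sequences at the starts of *Gpc3*, the only member with a promoter region, and of *Igf2bp3*, which is also rich in CpG but had no region at its start, are shown with every CpG in capitals. Both are RefSeq windows on GRCm38.p6 from 250 bases before to 50 bases after the start, on the minus strand, at chrX:52613925-52614224 and chr6:49214905-49215204.
Gpc3 promoter: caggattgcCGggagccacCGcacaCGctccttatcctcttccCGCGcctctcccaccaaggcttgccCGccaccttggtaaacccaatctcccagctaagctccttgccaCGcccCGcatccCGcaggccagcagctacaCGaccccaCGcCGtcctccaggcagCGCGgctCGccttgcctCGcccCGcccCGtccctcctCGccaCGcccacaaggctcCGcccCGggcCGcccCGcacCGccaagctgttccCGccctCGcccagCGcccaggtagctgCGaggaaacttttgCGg
Igf2bp3 promoter: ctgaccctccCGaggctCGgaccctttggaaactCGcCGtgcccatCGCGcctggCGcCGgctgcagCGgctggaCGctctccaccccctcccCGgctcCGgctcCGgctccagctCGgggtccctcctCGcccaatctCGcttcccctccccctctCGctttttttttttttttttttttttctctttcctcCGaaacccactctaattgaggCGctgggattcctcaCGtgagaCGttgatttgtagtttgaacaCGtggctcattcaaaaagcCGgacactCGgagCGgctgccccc
The *Gpc3* window holds 30 CpG and is 70.7% G and C, and the *Igf2bp3* window holds 25 CpG and is 60.3% G and C, against medians of 7 CpG and 52.7% over the 32851 windows of all genes. RefSeq held 9 windows for 6 of the 8 genes, 4 of them for *Igf2*, and none for *H19* and *Igf2bp1*. The other windows held 9 CpG at *Dlk1*, 8 at *Lin28b*, 12 at *Hmga2* and between 2 and 24 at *Igf2*. Of all windows with at least 20 CpG, the upper quartile, 86.4% overlapped an ATAC region, against 25.1% of the windows with fewer. Among the members, 3 windows reached 20 CpG, and the *Gpc3* window was overlapped while those of *Igf2bp3* and *Igf2* were not. None of the 6 member windows with fewer CpG was overlapped, but the *Lin28b* window lies at the TSS used by the authors. A region covers the start of the longer *Lin28b* gene model that RefSeq gives, for which no window was held.

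Short motifs were searched on both strands of the same windows, and a match says only that the letters are present. The GC box GGGCGG occurred 4 times in the *Gpc3* window, once in that of *Hmga2* and in 2 of the *Igf2* windows, and 35.7% of all windows hold it. The forkhead word TGTTTAC occurred 2 times in the *Dlk1* window and in no other member window, against 3.65% of all windows. CCCTC, part of the CTCF motif, which can share bases with the GC box, was found 5 times at *Igf2bp3*, 6 times at *Hmga2*, 2 times at *Gpc3* and at *Dlk1*, in 3 of the *Igf2* windows and not at *Lin28b*, and 66% of all windows hold it. The TATA word TATAAA (13.6% of all windows), the AP-1 word TGANTCA (7.81%) and the HNF1 word GTTAAT (7.1%) were in none of the member windows.

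The libraries differed over the whole genome, which sets the scale for the genes. The total, which was worked out from the RPM values since the methods do not state the scaling, was 52826210 reads for the flox/flox and 58038309 for the HKO library, of which 31.7% and 22.3% lay on regions. Log2 ratios are HKO over flox/flox, with 1 read added to each count and each library divided by its total. The median of all regions was −0.38, so a ratio of that size is what the typical region had. Regions with a mean count below 50 had a median of 0.24, and those at 200 or more had −0.64. *Mettl3* itself had 566 and 392 reads at its start (log2 ratio −0.67), but open chromatin there does not measure the deletion and so does not check the labels.

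Of the 10 regions, 2 were at least 2-fold higher in the HKO library and 3 at least 2-fold lower, where 13.2% of all regions were that much higher and 18.3% that much lower. The other 5 lay between. By an exact binomial test of the counts against the library totals, with p-values adjusted over all of them after Benjamini and Hochberg, 2 were higher and 6 lower, where 20.3% of all regions were called higher and 47.7% lower. These counts are near what the shares of all regions would give for 10 regions. Scaled to the counts in the regions in place of the totals, the same test called 3 of the 10 higher and 2 lower, where it called 36.8% of all regions higher and 22.4% lower. The median over the 10 was −0.67, or −0.30 relative to the median of all regions. On that centred scale 2 regions were higher by 2-fold or more and 1 lower, where 20% and 7.89% of all regions were. A region with a peak in 1 library entered the table through the library where it is high, so its ratio and tests partly follow from that choice. Of the 11701 regions with a peak only in the flox/flox library 52% were lower by 2-fold or more, and of the 14928 with a peak only in the HKO library 53.3% were higher. The values spread from −1.48 at *Igf2bp3* to 1.65 at *Hmga2*. Both regions called higher had a peak in the HKO library alone. None of the 7 with a peak in both libraries was at least 2-fold higher, where 2.91% of all 42920 such regions were.

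**Figure D1:**
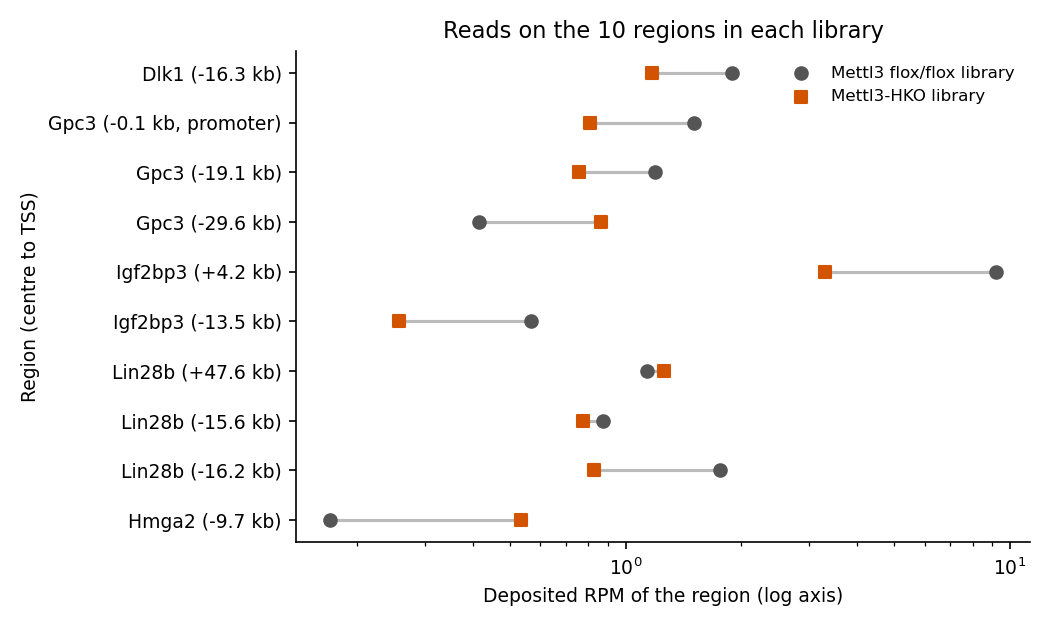
RPM (reads scaled to library size) of each of the 10 regions (log x axis) in the flox/flox library (grey circles) and the HKO library (orange squares), with 1 pooled library each and so no error bar. The *Igf2bp3* region at 4.2 kb stands far to the right, with 9.22 RPM in the flox/flox and 3.31 in the HKO library. *Hmga2*, the farthest *Gpc3* region and, by little, the *Lin28b* region at 47.6 kb run the other way.

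A liver library mixes cell types, and in bulk tissue fewer cells of a type cannot be told apart from less open chromatin per cell. Hepatocyte markers had regions at all 8 genes, with summed reads of 521 RPM in the flox/flox and 390 RPM in the HKO library, and their 66 regions had a median log2 ratio of −0.52, with 6 higher by 2-fold or more and 11 lower, where 13.2% and 18.3% of all regions were. Within them *Cyp3a11* ran the other way, with 617 and 1287 reads. Endothelial markers also had regions at all 8 genes, and their sum was 32.9 and 41.3 RPM. Of their 31 regions, 16 had at least 2-fold more reads in the HKO library and 2 had at least 2-fold fewer, with a median of 1.17, although *Stab2*, the endothelial gene with the most reads in the flox/flox library, had 661 and 448. Macrophage markers had regions at 6 of 8 genes (18.3 and 12.3 RPM, none at *Timd4* and *Vsig4*), stellate markers at 5 of 8 (18.1 and 10.8 RPM, none at *Des*, *Lrat* and *Pdgfrb*), and cholangiocyte markers at 5 of 8 (76.1 and 58.3 RPM, none at *Cftr*, *Krt19* and *Krt7*). The macrophage sum turned on *Marco*, with 463 and 35 reads, while the 12 regions had a median log2 ratio of 0.50, with 4 higher by 2-fold or more and 1 lower. The stellate sum turned on *Reln*, with 690 and 132 reads, while the other 4 genes had more reads in the HKO library and the 8 regions had a median of 0.68, with 2 higher by 2-fold or more and 1 lower. The 23 cholangiocyte regions had a median of −0.25, with 3 higher and 3 lower by that measure. Erythroid markers had regions at 6 of 8 genes (16.3 and 14.1 RPM, none at the globin genes *Hba-a1* and *Hbb-bt*), and their 9 regions had a median of 0.49, with 4 higher by 2-fold or more, among them that of *Alas2* with 15 and 59 reads, and 3 lower. The part of these cells in the ratios of the fetal and imprinted genes was not tested.

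The products of *Igf2bp3* and *Igf2bp1* bind *Igf2* messenger RNA. They are RNA-binding proteins of the fetal and cancer cell that stabilise such messages, and both are also known as readers of m6A. The *Igf2bp3* region 4.2 kb inside the gene, at chr6:49210399-49211018 in intron 2 and overlapping the annotated gene *D030074P21Rik*, had 486 reads in the flox/flox library and 191 in the HKO library. It was the strongest of the 10 in both libraries. Its log2 ratio was −1.48 (95% limits −1.73 to −1.24, adjusted p = 1.17e-35 by the exact binomial test), lower than that of all but 6.2% of regions. Per base it was 40.6-fold above the genome average in the flox/flox library, the 93.8th percentile of distal regions, and 14.6-fold in the HKO library, the 75.9th percentile. A weaker region 13.5 kb upstream, at chr6:49228352-49228562, between genes, had 29 and 14 reads and a peak only in the flox/flox library. Its log2 ratio was −1.14 (95% limits −2.22 to −0.22, adjusted p = 0.0217 by the exact binomial test). Scaled to the counts in the regions, the intronic region was still called (adjusted p = 3.97e-15 by the exact binomial test) and the upstream one was not (adjusted p = 0.229 by the exact binomial test). The second region was chosen by its peak in the flox/flox library, so its ratio adds little to that of the first.

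The long introns of *Igf2bp3* hold 7 more regions whose closest TSS belongs to another annotated gene, and these did not all move together. In intron 3, the region at chr6:49165813-49166686 was also strong, with 536 and 380 reads, but its log2 ratio was only −0.63 (95% limits −0.83 to −0.44, adjusted p = 2.43e-10 by the exact binomial test, or 0.288 scaled to the counts in the regions). By Fisher's exact test the 2 strong regions differed from each other, adjusted p = 3.22e-07 over 59 pairs of regions of the same gene. Of the other 4 regions of intron 3, the one at chr6:49150332-49150953 had 153 and 65 reads, a log2 ratio of −1.36, and the rest had ratios from −1.10 to 0.07. Toward the far end of the gene, where the regions also overlap the annotated gene *Malsu1*, the counts ran the other way. The region of intron 10 at chr6:49096821-49097548 had 111 and 170 reads, a log2 ratio of 0.48 (95% limits 0.13 to 0.84, adjusted p = 0.012 by the exact binomial test). The region of intron 6 at chr6:49109592-49109960 had 19 and 49 reads, a log2 ratio of 1.19, with a peak only in the HKO library. Over all 9 regions, 4 were at least 2-fold lower and 1 at least 2-fold higher, where 18.3% and 13.2% of all regions were. Relative to the median of all regions 1 was lower and 1 higher by that fold, where 7.89% and 20% of all regions were. The strongest region within 100 kb of the *Igf2bp3* start lay 21.6 kb upstream, at chr6:49236354-49236710, with 1128 and 921 reads and a log2 ratio of −0.43, close to the median of all regions.

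*Igf2bp1* had no region of its own and none inside its annotated span. The nearest region was centred 28.9 kb from the higher coordinate of that span, whose strand was not used. It lay at chr11:96034682-96035071 in the gene *Snf8*, with 106 and 88 reads (log2 ratio −0.40). The strongest regions around it were at *4833417C18Rik*, with 875 and 849 reads, and at *Atp5g1*, a subunit gene of the mitochondrial ATP synthase, with 868 and 754.

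**Figure D2:**
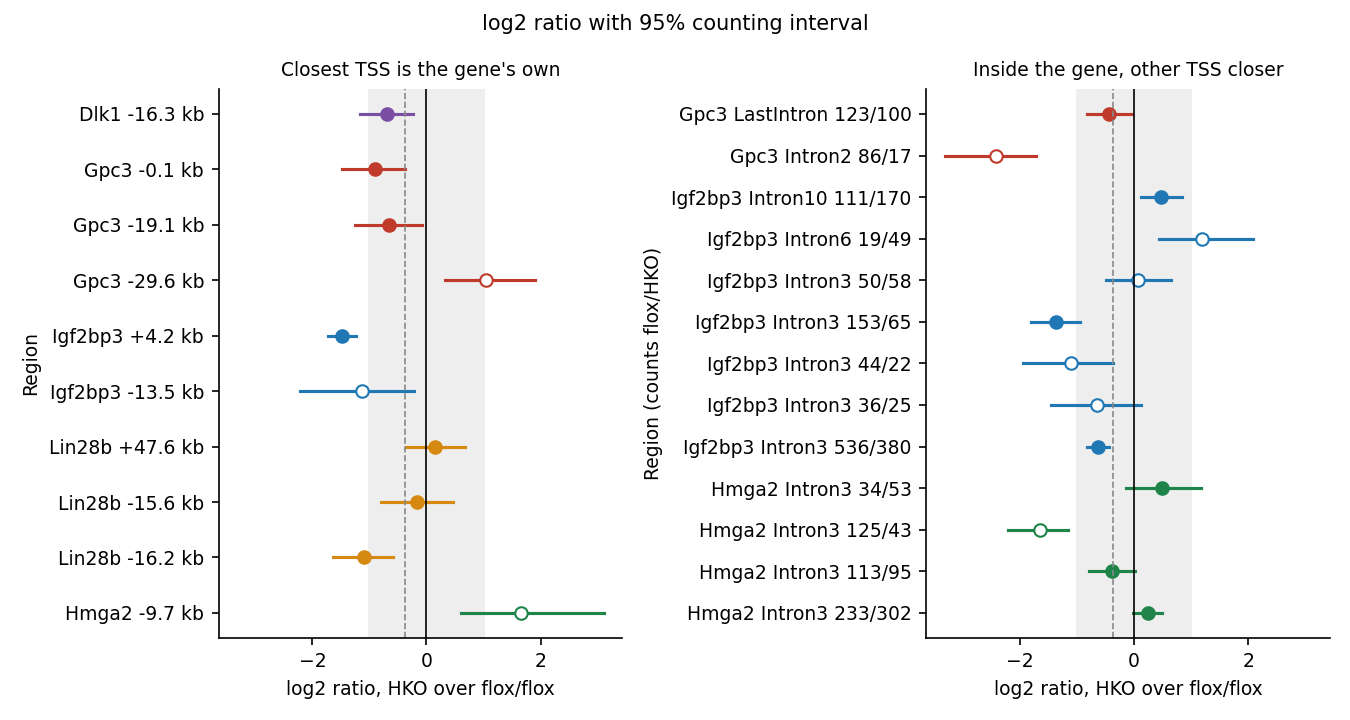
Log2 ratio of HKO over flox/flox with its 95% counting interval for the 10 regions closest to a member's own TSS (left, by distance) and the 13 other regions inside *Gpc3*, *Igf2bp3* and *Hmga2* (right, by intron and by the counts of the 2 libraries). Filled points had a peak in both libraries and open points in 1, the dashed line is the median of all regions (−0.38), the shaded band is a change of under 2-fold, and *Gpc3*, *Igf2bp3* and *Hmga2* each have points on both sides of 0.

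*Gpc3* and *Dlk1* encode proteins of the cell surface. Glypican 3 is a heparan sulphate proteoglycan that restrains growth before birth and is a marker of hepatocellular carcinoma in the adult. Its promoter region, at chrX:52613707-52614403, lies across the annotated start and also overlaps the annotated gene *A630012P03Rik*. The region had 79 reads in the flox/flox library and 46 in the HKO library. Its log2 ratio was −0.90 (95% limits −1.47 to −0.37, adjusted p = 0.00126 by the exact binomial test), against a median of −0.56 over 14387 promoter regions. The call was lost when scaled to the counts in the regions (adjusted p = 0.207 by the exact binomial test). It was weakly open, 5.93-fold above the genome average per base in the flox/flox library, where 8.2% of promoter regions were lower, and 3.17-fold in the HKO library, where 1.3% were lower. The median promoter region stood at 25.8-fold and 16.7-fold.

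Upstream of *Gpc3*, the region 19.1 kb away at chrX:52632705-52633348 had 62 and 43 reads, a log2 ratio of −0.65 (95% limits −1.26 to −0.08, adjusted p = 0.0366 by the exact binomial test, or 0.696 scaled to the counts in the regions). The region 29.6 kb away at chrX:52643401-52643693 went the other way, with 21 reads in the flox/flox library and 49 in the HKO library, and only the latter had a peak there. The log2 ratio was 1.05 (95% limits 0.32 to 1.90, adjusted p = 0.00674 by the exact binomial test, or 3.46e-05 scaled to the counts in the regions). A test of the 2 upstream regions against each other does not depend on how the libraries are scaled. By Fisher's exact test the far region differed from the promoter (adjusted p = 4.79e-05) and from the region at 19.1 kb (adjusted p = 0.000531), while the promoter and the region at 19.1 kb were not told apart (adjusted p = 0.654). The far region entered through the HKO library alone and the others had a peak in both, so part of this difference is built in. Summed over the 3 regions the reads were 162 and 138, a log2 ratio of −0.37, as in the median region of the genome, and this summed ratio was above 0 under each of the other 3 scalings tried.

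Inside *Gpc3* lay the region with the lowest ratio at any of the genes. In intron 2, at chrX:52453348-52453681 and closest to the start of *Mir717*, 86 reads in the flox/flox library, the only one with a peak there, stood against 17 in the HKO library. The log2 ratio was −2.41 (95% limits −3.32 to −1.71, adjusted p = 5.59e-13 by the exact binomial test), and 0.7% of all regions were lower, but 52% of regions with a peak in that library alone were lower by 2-fold or more. The region of the last intron, at chrX:52273038-52273541, had 123 and 100 reads and a ratio of −0.43 (adjusted p = 0.0403 by the exact binomial test, or 0.751 scaled to the counts in the regions). On the X chromosome as a whole, 25.9% of 1740 regions were lower by 2-fold or more and 11.4% higher, with a median of −0.54.

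DLK1 is a transmembrane protein of hepatoblasts that resembles the Notch ligands, and its gene is expressed from the paternal allele. Its region, 16.3 kb upstream at chr12:109436310-109436830 and between genes, had 99 and 67 reads. The log2 ratio was −0.69 (95% limits −1.17 to −0.24, adjusted p = 0.00436 by the exact binomial test). Scaled to the counts in the regions it was −0.18 and no longer called (adjusted p = 0.516 by the exact binomial test), and centred on the strongest promoters it was −0.047. Per base the region was of middling strength, 9.92-fold above the genome average in the flox/flox library, the 50.8th percentile of distal regions, and 6.14-fold in the HKO library, the 23.8th percentile.

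Toward *Meg3*, the maternally expressed long noncoding RNA of the same domain, 5 more regions lay within 100 kb of the *Dlk1* start. The table gives their closest genes without a symbol, and 2 lay inside the *Meg3* gene that RefSeq gives. These had 71 and 43 reads at chr12:109542868-109543177 (log2 ratio −0.85, adjusted p = 0.00359 by the exact binomial test) and 21 and 28 reads at chr12:109542149-109542427 (log2 ratio 0.26, adjusted p = 0.621 by the same test). The other 3, between *Dlk1* and *Meg3* in the annotated gene *Gm34081*, had log2 ratios from −1.24 to −0.23, and the strongest of those had 148 and 139 reads. Of the 6 regions of the domain 5 had ratios below 0, as had 45084 of all 69549 regions, and 2 lay above the median of all regions.

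The domain of *H19* and *Igf2* was nearly without regions. *H19*, a noncoding RNA and the host of miR-675, had none within its span at chr7:142575530-142578146, and *Igf2* had none in its span at chr7:142650768-142666816 or at any of its 4 promoter windows. A single region lay between the genes, at chr7:142630696-142631092, with *Mir483* as the closest gene. It had 41 reads in the flox/flox library and 69 in the HKO library, a log2 ratio of 0.60 (95% limits 0.04 to 1.21), which missed the threshold (adjusted p = 0.0517 by the exact binomial test). On the far side of *Igf2*, the region at chr7:142678666-142678947, within *Ins2*, which encodes an insulin, had 67 and 53 reads (log2 ratio −0.47, adjusted p = 0.111 by the exact binomial test). The strongest region in the window, in the mitochondrial ribosomal protein gene *Mrpl23* on the far side of *H19*, had 413 and 427 reads (log2 ratio −0.09).

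*Lin28b* and *Hmga2* belong to the let-7 circuit, LIN28B as the inhibitor of let-7 maturation and HMGA2 as an architectural chromatin protein of embryonic cells. *Lin28b* had 2 neighbouring regions upstream of the TSS used by the authors and 1 in intron 2. The farther of the upstream pair, at chr10:45486168-45486659, 16.2 kb away, covers the 5′ start of the longer gene model that RefSeq gives on the minus strand, 99 bases from its centre. It had 92 reads in the flox/flox library and 47 in the HKO library, a log2 ratio of −1.09 (95% limits −1.64 to −0.58, adjusted p = 3.37e-05 by the exact binomial test, or 0.0367 scaled to the counts in the regions). The nearer, at chr10:45485652-45485998, lies 169 bases from it and had 45 and 44 reads, a log2 ratio of −0.17 (95% limits −0.80 to 0.46, adjusted p = 0.649 by the exact binomial test). The region of intron 2, 47.6 kb inside the gene at chr10:45422403-45422741, had 59 and 72 reads, a log2 ratio of 0.15 (95% limits −0.37 to 0.67, adjusted p = 0.651 by the exact binomial test, or 0.0195, as higher, scaled to the counts in the regions). By Fisher's exact test the farther upstream region differed from the nearer one (adjusted p = 0.0419) and from the intronic one (adjusted p = 0.00143), and the last 2 were not told apart (adjusted p = 0.569). The intervals of those 2 still allow changes of more than 1.5-fold. Summed over the 3 regions of *Lin28b* the reads were 196 and 163, a log2 ratio of −0.40, and this summed ratio was above 0 under 2 of the other 3 scalings.

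The *Hmga2* region, 9.7 kb upstream at chr10:120486092-120486296 and between genes, had the highest ratio and the fewest reads. It had 8 reads in the flox/flox library and 30 in the HKO library, and the peak was called in the latter alone. The log2 ratio was 1.65 with a wide interval, 0.61 to 3.11 (adjusted p = 0.00191 by the exact binomial test). Per base it was 2.27-fold above the genome average in the flox/flox library and 7.12-fold in the HKO library, the 33.7th percentile of distal regions there. Both regions that were at least 2-fold higher, this one and the far *Gpc3* region, thus had a peak in the HKO library alone. The peak call and the ratio are not independent.

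In the large intron 3 of *Hmga2* lay 4 regions with another closest TSS. The strongest, at chr10:120421895-120422466 near *Mir763*, had 233 and 302 reads, a log2 ratio of 0.24 (95% limits −0.01 to 0.49, adjusted p = 0.0869 by the exact binomial test, or 1.72e-08, as higher, scaled to the counts in the regions). The region at chr10:120390963-120391779, which overlaps the annotated gene *9230105E05Rik*, had 125 and 43 reads, a log2 ratio of −1.65 (95% limits −2.21 to −1.17, adjusted p = 1.13e-11 by the exact binomial test) and a peak only in the flox/flox library, a class in which 52% of regions were lower by 2-fold or more. The other 2 had 34 and 53 reads and 113 and 95 reads, and neither passed the test, although the first did when scaled to the counts in the regions (adjusted p = 0.00355 by the exact binomial test). Summed over all 5 regions of *Hmga2* the reads were 513 and 523, a log2 ratio of −0.11 (95% limits −0.29 to 0.07).

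**Figure D3:**
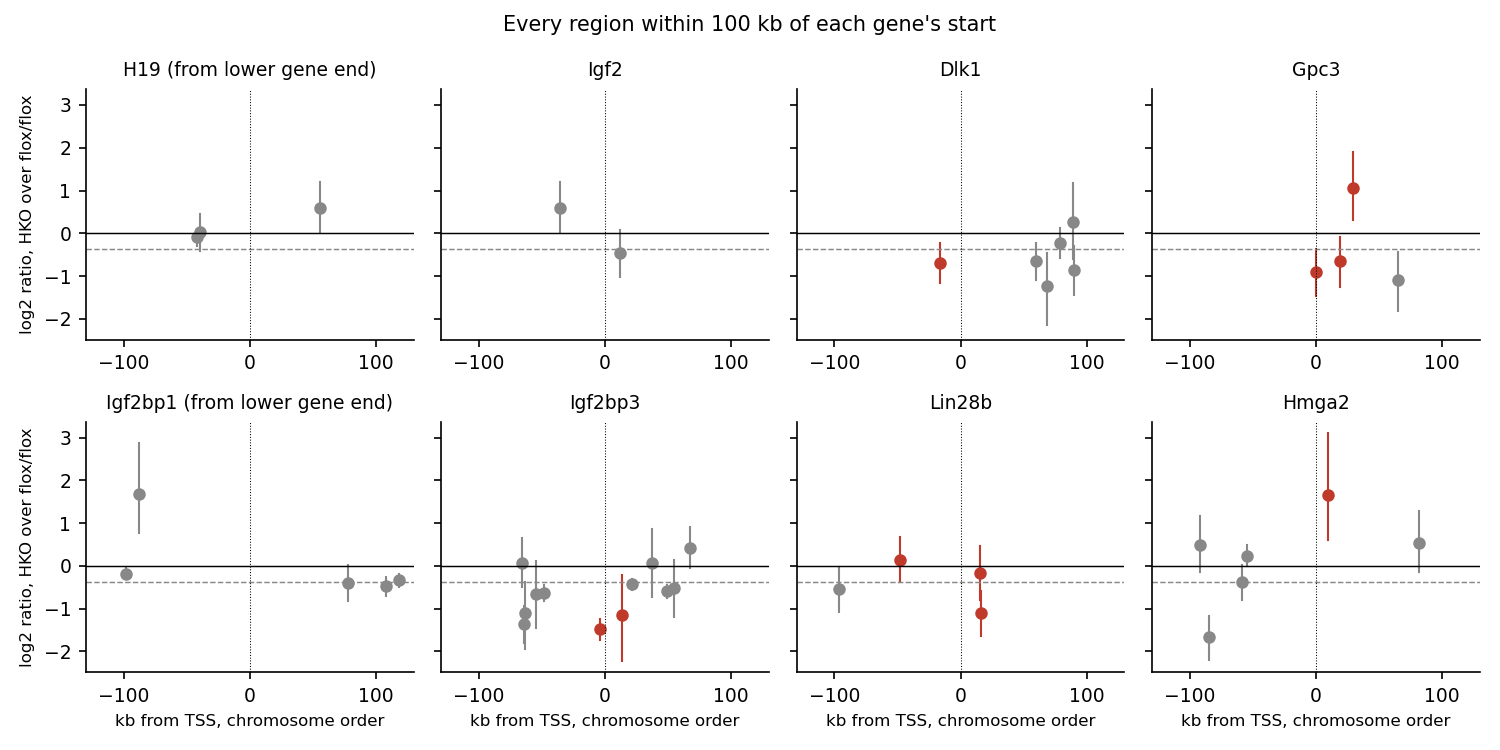
Log2 ratio of every region within 100 kb of each gene's start (of the nearer gene end for *H19* and *Igf2bp1*), against distance in kb along the chromosome (0 is the TSS, or the lower end of the gene for *H19* and *Igf2bp1*), with 95% counting intervals. Red points are the 10 regions closest to a member's own TSS, grey points belong to other genes or to introns, the dashed line is the median of all regions (−0.38), and the panels of *H19* and *Igf2* hold 3 and 2 regions, none of them red.

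Of the let-7 circuit, 7 of 15 listed genes had a region, 15 regions in all. None was at least 2-fold higher and 1 was at least 2-fold lower, and the binomial test called none higher and 10 lower, with a median log2 ratio of −0.66. Over all regions 13.2% and 18.3% passed those folds, the test called 20.3% higher and 47.7% lower, and these shares apply to the lists that follow as well. The let-7 genes with a region encode the following mature microRNAs of RefSeq, given with the seed, bases 2 to 8, in capitals because it is the part that pairs with targets.
let-7b: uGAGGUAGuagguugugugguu
let-7c: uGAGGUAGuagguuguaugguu
let-7d: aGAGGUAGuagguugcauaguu
let-7i: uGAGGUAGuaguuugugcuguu
All 4 share 1 seed and so form a single target group. The gene with the lowest median of the list was *Mirlet7c-2*, at −0.96, and its promoter region had 514 and 285 reads (log2 ratio −0.98). *Mirlet7i* had 1203 and 976 reads on its single region (log2 ratio −0.44). The highest median was that of *Zcchc11*, which encodes the uridylyl transferase that LIN28 recruits to let-7 precursors, at 0.01, with 451 and 526 reads on its promoter region.

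Imprinted genes outside the members were listed by the allele expressed. For the paternally expressed genes 11 of 20 had a region, and of 17 regions 1 was higher by 2-fold or more and 5 lower (median −0.75). *Peg10*, a gene of retroviral origin needed in the placenta, had the lowest median, with 133 and 43 reads on its promoter region (log2 ratio −1.74) and 604 and 260 reads on a second region (log2 ratio −1.35). *Ndn*, which encodes the growth suppressor necdin, had the highest, with 30 and 85 reads on its region (log2 ratio 1.34). For the maternally expressed genes 12 of 16 had a region, and of 34 regions 3 were higher by 2-fold or more and 7 lower (median −0.49). *Phlda2*, a restrainer of placental growth, had the highest median, with 18 and 55 reads on its promoter region (log2 ratio 1.42), and *Tssc4* the lowest, with 93 and 33 reads (log2 ratio −1.60) and 44 and 15 reads (log2 ratio −1.63) on its distal regions, beside 891 and 618 at its promoter. The binomial test called 1 region higher and 12 lower in the paternal list, and 6 higher and 17 lower in the maternal list, where it called 20.3% of all regions higher and 47.7% lower. The regions named for *Ndn* and *Phlda2* had a peak only in the HKO library, and the *Peg10* promoter and the distal *Tssc4* regions only in the flox/flox library.

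Other fetal and oncofetal genes had regions at 11 of 14, and of 27 regions 3 were higher by 2-fold or more and 5 lower, while the binomial test called 3 higher and 13 lower (median −0.45). *Afp*, the alpha-fetoprotein gene and the classic marker of fetal liver, kept a strong distal region 13.7 kb upstream with 2517 and 2187 reads, a log2 ratio of −0.34, near the median of all regions. *Hmga1*, the close relative of *Hmga2*, had the lowest median, with 904 and 510 reads at its promoter (log2 ratio −0.96) and 604 and 232 reads 3.7 kb upstream (log2 ratio −1.51). *Cdh17*, an intestinal cadherin, had the highest, with 2 weak regions of 4 and 23 and of 20 and 60 reads, both with a peak only in the HKO library.

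The list of repressors of fetal liver genes and insulator proteins had regions at all 9 genes. Of 28 regions 1 was higher by 2-fold or more and 5 lower, and the binomial test called 3 higher and 15 lower (median −0.48). *Zhx2*, the postnatal repressor of *Afp*, *H19* and *Gpc3*, had 448 and 489 reads at its promoter (log2 ratio −0.01, adjusted p = 0.939 by the exact binomial test) and 426 and 278 reads on the region next to it (log2 ratio −0.75). *Zbtb20*, another repressor of *Afp*, had 140 and 112 reads at its promoter (log2 ratio −0.46) and 103 and 189 reads (log2 ratio 0.73) on a region 4.2 kb inside the gene that had a peak only in the HKO library. *Zhx1* had the highest median because of 2 distal regions, although its promoter had 2702 and 1503 reads (log2 ratio −0.98). *Zhx3* had the lowest, and its stronger promoter region had 1119 and 635 reads (log2 ratio −0.95). Among the IGF receptors and binding proteins 9 of 11 genes had a region, and of 48 regions 3 were higher by 2-fold or more and 6 lower, with 6 and 21 called by the binomial test (median −0.21). *Igf1*, the growth factor that takes over after birth, had the highest median, 0.22 over 6 regions, and *Igfbp4* the lowest, −0.97 over 4.

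**Figure D4:**
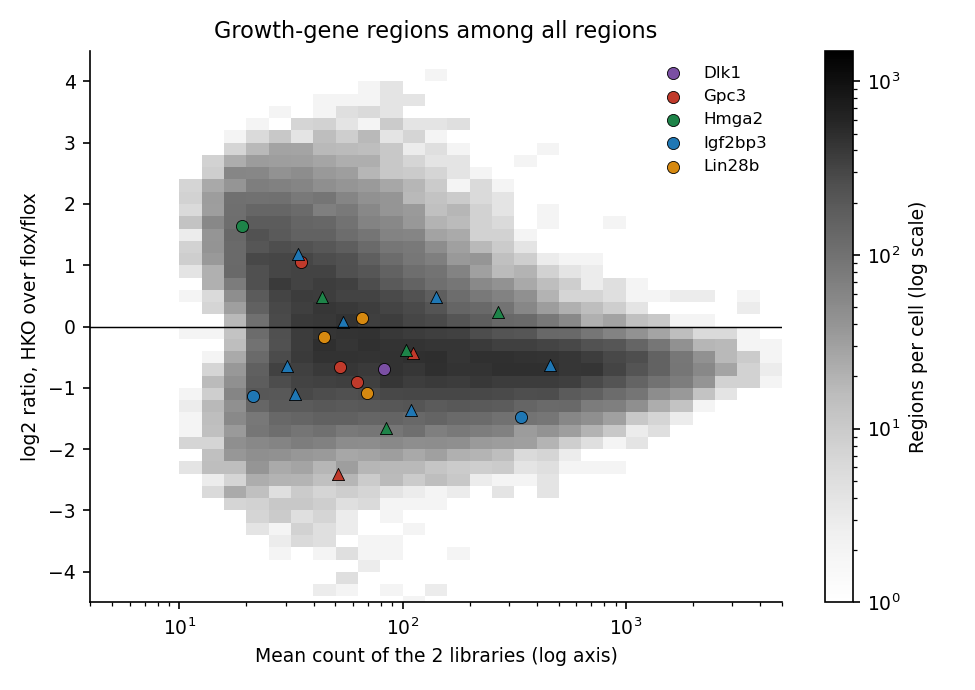
Log2 ratio against the mean count of the 2 libraries (log axis) for all regions, as grey cells whose shade gives the number of regions on a log scale, with the regions of the genes on top. Circles are the 10 regions closest to a member's own TSS and triangles the 13 inside the genes. The *Hmga2* circle at 1.65 lies where counts are lowest and high ratios most common, and the *Igf2bp3* circle at −1.48 has a ratio below which 6.2% of all regions lie.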

How the data were processed

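ATAC-seq of nuclei from pooled livers was analysed for 1 *Mettl3* flox/flox and 1 *Mettl3*-HKO library. Adaptors had been trimmed with skewer 0.2.2 and reads aligned with BWA 0.7.12 to GRCm38, keeping properly paired, non-mitochondrial reads with a mapping quality of at least 13. Peaks had been called in each library with MACS2 with all duplicate reads kept, and merged. The method of counting on merged regions, and any shift of read ends for Tn5, are not given in the sources used here. The authors deposited raw counts per region and library, RPM values (the count plus 1, scaled to library size), a fold enrichment (the ratio of read density on the region to read density over the genome), and the distance to 1 TSS per gene. A log2 column, also deposited by the authors, holds their own comparison and was not used.

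The table has 74821 rows, of which 5272 repeat a region and were left out. Starts were converted to count from 1. Log2 ratios were computed from the counts with 1 read added, scaled to the library totals. The 2 counts of a region were tested with an exact binomial test (two-sided, conditional on their sum) with Benjamini-Hochberg adjustment over 69549 regions and a threshold of 0.05. Intervals are 95% Clopper-Pearson intervals of the *Mettl3*-HKO share turned into log2 ratios. Whether the counts hold duplicate reads is not stated, and if they do, they are less independent than test and interval assume. Where the table gives no symbol, genes were named by exact RefSeq coordinates (2082 genes, so that 16670 of 27433 carry a name). Members and lists were chosen with earlier results of these data known. All members were named with their promoter regions and, of each gene's other regions, those with the highest and lowest ratio and the highest mean count. Of each list, the genes with the highest and lowest median among those with at least 40 summed reads were named, together with *Afp*, *Meg3*, *Zhx2* and *Zbtb20*, and near each gene the regions of highest mean count. Other named regions and genes, among them further regions inside the genes, *Mirlet7i* and 2 other let-7 genes, and the 59 pairs compared by Fisher's exact test, were chosen after their values were seen. *Igf2r* and *Epcam* stand on 2 lists each. Alternatives were other scalings, added counts, folds, count and peak filters, and a 100 kb window. The list of lymphocyte markers is not reported here. The scripts were tested on simulated data. The tools were scipy 1.17.1, pandas 2.3.3, numpy 2.4.6 and matplotlib 3.10.9 under Python 3.11.15.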

Additional observations from a re-analysis of the deposited data

How the results depend on the processing

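No paired analysis was possible because each group is 1 library without a replicate number, and for the same reason no library could be left out. The scaling moved the medians and the lower counts, and the count and peak filters moved the higher count. The median of the 10 regions, −0.67, was −0.30 when centred on the median region, −0.028 when centred on the strongest 10% of promoters, −0.16 when scaled to the counts in the regions, and −0.43 over all regions within 100 kb. The *Gpc3* promoter, at −0.90, stood at −0.26 when centred on the strongest promoters. In the same 3 scalings the count of regions at least 2-fold lower fell from 3 to 1, 0 and 0, and against the counts in the regions the binomial test called 3 higher and 2 lower in place of 2 and 6. The summed ratio of *Gpc3* turned from −0.37 to 0.011, 0.28 and 0.15, and that of *Lin28b*, −0.40, turned to 0.24 by the strongest promoters and 0.11 by the counts in the regions. The intronic *Igf2bp3* region stayed below 0, between −1.48 and −0.83, and the *Hmga2* region above 0 in these scalings. The count of regions at least 2-fold higher, 2, was 1 with 10 counts added, 1 with a mean of at least 20 counts and 0 with a peak in both libraries. Of all regions with a peak in both libraries, 2.91% were that much higher. The count of lower regions was 1 with 10 counts added and 6 at 1.5-fold. Of the values for the genes and regions, 43 stayed within their counting interval, 17 moved beyond it and 5, those of *Gpc3* and *Lin28b* above, changed sign although their interval had left out 0. Each of the 3 scalings adds a fixed amount to every ratio, so a change of sign follows from the size of the ratio alone. The *Lin28b* region at 15.6 kb, whose interval spans 0, also changed sign, from −0.17 to 0.21, 0.48 and 0.34 in the 3 scalings. Depth limits the weak regions most, since the *Hmga2* ratio rests on 8 reads in 1 library.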
